A study of Mus musculus with 113 samples.

Results

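The liver X receptor (LXR) target and lipogenesis genes described here are *Abca1*, *Abcg1*, *Srebf1*, *Mylip*, *Scd1*, *Scd2*, *Fasn*, *Lpcat3*, *Acaca* and *Elovl6*, 10 of the 24006 genes measured in mouse embryos before implantation. They were taken as a fixed list of named genes and not by a rule on measured values, though earlier results of these data were known. All 10 are in each of the 92 libraries. *Nr1h3* encodes LXRα, 1 of the 4 nuclear receptors whose mRNA the study knocked down, so the question here is how these genes responded to loss of *Nr1h3* and to loss of *Nr5a2*, and how their levels changed with stage.

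LXRα and its paralog LXRβ, encoded by *Nr1h2*, bind DNA as heterodimers with retinoid X receptors and are activated by oxysterols. In liver and macrophages they are known for raising genes of sterol export and of fatty acid synthesis, and without ligand they can hold such genes down with corepressors. *Abca1* and *Abcg1* encode transporters that export cholesterol and phospholipid, *Mylip* encodes a ubiquitin ligase that degrades the LDL receptor, *Srebf1* encodes a transcription factor that drives lipogenesis, and *Lpcat3* encodes an enzyme that puts polyunsaturated acyl chains into phospholipids. *Acaca* and *Fasn* encode acetyl-CoA carboxylase and fatty acid synthase, which build saturated fatty acids, *Elovl6* encodes the elongase that lengthens palmitate, and *Scd1* and *Scd2* encode desaturases that make oleate and palmitoleate.

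RNA-seq (Smart-seq2) was run on wild-type embryos of superovulated mice injected as zygotes, and 92 libraries in 22 groups carried FPKM, a level given per length of transcript and per fragment mapped. Pools of embryos (2 per group, 32 in all) had received siRNA, and 60 single embryos came from a base editing experiment. The siRNA groups at the 8-cell stage (8C) were single knockdowns (KD) of *Nr5a2*, *Rarg*, *Nr1h3* and *Nr2c2*, triple KD that each leave out 1 of these 4 siRNAs, and the KD of all 4 (4KD), each experiment with its own negative control siRNA (NC). The 4KD and NC pools were also taken at the 4-cell stage (4C), and *Nr5a2* KD and NC pools at the 2-cell stage (2C). Each siRNA was given at 5 µM in the 8C and 4C groups and NC siRNA at 5, 15 and 20 µM in the single, triple and 4KD experiments, while the 2C groups carry 20 µM in the labels. The base editor groups received BE mRNA at 100 ng/µl alone (BE, 8 embryos per stage), an sgRNA against *Nr5a2* alone (8 per stage) or both (BE + sgRNA, 14 per stage), at 2C and 8C. File headers name the editor BE4 for part of the base editing libraries, while the labels give BE only. Nothing in the labels ties a pool to separate animals, so p-values below measure the spread between these pools or embryos only. FPKM give no depth and therefore no counting interval, and in whole embryos fewer expressing cells and less RNA per cell cannot be told apart.

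The sum of FPKM over all genes lay between 83392 and 556462 per library, and the lowest belonged to 1 BE + sgRNA embryo at 8C. Of the single-embryo libraries, 3 carry file headers that name a 4-cell embryo, against their labels, and they were kept under the labels. The embryo markers were present, with a median *Dppa3* of 1359 FPKM at 2C and 4425 at 8C, a *Zscan4c* median of 19.4 at 2C against 0.0788 at 8C, and a *Tead4* median of 3.58 against 55.6. Of the markers listed with *Dppa3*, *Pou5f1* and *Tfap2c* rose too. *Gdf9* (201 to 2.59), *Bmp15* (151 to 0.972), *Nlrp5*, *Ooep* and *Zp3* fell. Among the 8C markers *Sox2* alone did not rise (0.288 at 2C and 0 at 8C), and *Cdx2* was only at 0.387 at 8C. Markers of cumulus and granulosa cells summed over 11 genes reached at most 13.8 FPKM in a 2C library and 1.31 in an 8C library. The 4 blood markers reached 256 and 186 FPKM, carried by *Hba-a1* with *Ptprc* at a median of 0, and the 4 oviduct markers 153 and 89.8, carried by *Epcam* with *Foxj1* at a median of 0.144 and 0.

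In mm9, the build of the files, with GENCODE gene models, *Abca1* lies at chr4:53043659-53172767 and *Abcg1* at chr17:31194643-31252722. *Srebf1* lies at chr11:60012591-60036083, *Mylip* at chr13:45485111-45507388 and *Lpcat3* at chr6:124613045-124654436. *Acaca* lies at chr11:83943174-84215153, *Fasn* at chr11:120667254-120685492 and *Elovl6* at chr3:129235304-129341413. *Scd1* at chr19:44468941-44482199 and *Scd2* at chr19:44368166-44381354 are neighbouring paralogs on opposite strands. The longest transcripts of *Scd1* and *Scd2* share 145 of 4787 runs of 50 bases (3.03%), so a small share of reads could be given to either gene.

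Promoter windows of RefSeq (GRCm38.p6), from 250 bases before to 50 after each start, were found for 7 of the 10 genes, in 9 windows. They were searched on both strands for 4 words of the extended half-site that NR5A2 is known to bind (TCAAGG or CCAAGG, followed by TCA or CCA), and for the LXR element, AGGTCA repeated in the same direction after 4 bases. An NR5A2 word was found in the windows of *Elovl6* and *Acaca*, both TCAAGGCCA, against 2.22% of all 32851 windows for any of the 4 words and 0.591% for TCAAGGCCA. The LXR element was in none of the 9 windows and in 0.0152% of all. These are matches of letters only, and a window without a match says nothing about binding of the factor.

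Shown for the genes that rose most with stage, and for *Acaca* with the other NR5A2 word, are the bases of mm9 before the gene start (plus strand, 5′ to 3′). The *Elovl6* stretch covers chr3:129235054-129235303, and its capitals mark TCAAGGCCA, at 188 bases before the RefSeq start, joined by 1 shared base to TGACCT, the reverse complement of the half-site AGGTCA (16.3% of windows). The *Lpcat3* stretch covers chr6:124612872-124613044, and its capitals mark CCAAT, the word of the factor NF-Y (37.4% of windows). The *Acaca* stretch covers chr11:84008701-84008740, inside the gene and outside its GENCODE exons, at 224 bases before the RefSeq start.
Elovl6: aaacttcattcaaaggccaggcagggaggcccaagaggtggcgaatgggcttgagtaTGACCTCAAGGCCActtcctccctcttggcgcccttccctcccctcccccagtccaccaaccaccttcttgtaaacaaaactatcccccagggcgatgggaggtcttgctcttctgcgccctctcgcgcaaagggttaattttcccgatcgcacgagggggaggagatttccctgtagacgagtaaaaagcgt
Lpcat3: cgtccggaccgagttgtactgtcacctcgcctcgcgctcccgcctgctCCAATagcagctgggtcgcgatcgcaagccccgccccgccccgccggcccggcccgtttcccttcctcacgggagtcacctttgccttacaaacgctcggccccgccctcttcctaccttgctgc
Acaca: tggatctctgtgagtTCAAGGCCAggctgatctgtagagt

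Over the 92 libraries, *Lpcat3* and *Elovl6* stood far above the other 8 genes, with means of 37.9 ± 30.9 FPKM (SD, n = 92) and 32.1 ± 25.9. *Scd1* followed at 8.71 ± 5.57, and *Fasn* (3.92 ± 2.46), *Scd2* (3.70 ± 2.63) and *Mylip* (2.89 ± 4.56) lay within their SD of each other. *Srebf1* (1.23 ± 0.886), *Acaca* (0.614 ± 0.445), *Abcg1* (0.575 ± 0.866) and *Abca1* (0.413 ± 0.411) were near the bottom of the measured range. *Abcg1* was listed at 0 in 20 libraries and *Abca1* in 15, and *Abca1* never exceeded 1.47 FPKM. The mRNAs of both cholesterol exporters were thus scarce in every group, and *Abca1* passed the filter on low values (a mean of 1 FPKM in at least 1 group) in no comparison.

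The order within pairs of like genes was not fixed. *Lpcat3* was above *Elovl6* in 57 of 92 libraries, and their means differed by less than their SD in control embryos of both stages. *Scd1* was above *Scd2* in 78 of 92 libraries, of which 25 of 34 at 2C, 4 of 4 at 4C and 49 of 54 at 8C.

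The change with stage was first read in single control embryos (BE alone or sgRNA alone), 16 at each stage. FPKM were compared with limma on log2(FPKM + 1), and a gene passed at a Benjamini-Hochberg adjusted p under 0.05 over all genes tested. Of the 9 members tested, 6 passed from 2C to 8C, 4 higher and 2 lower, where 72.5% of all 12991 genes passed (28.9% higher and 43.6% lower). The share of members that passed is therefore near that of all genes. *Abcg1* and *Mylip* passed the filter on low values only through 2C groups, and *Acaca* only through 8C groups. The directions of their changes follow in part from that filter. Without the libraries whose headers name another stage 7 members passed.

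*Elovl6*, the elongase of palmitate, rose from 6.93 ± 7.83 FPKM at 2C (lowest 0.552, median 4.14, highest 27.1) to 62.6 ± 25.7 at 8C (15.8, 63.3 and 106). The log2 fold change was 3.40 (limma adjusted p = 2.75e-13), and the stages overlapped in their extremes only. *Lpcat3*, the phospholipid acyltransferase, rose from 8.48 ± 4.53 FPKM (2.51, 8.01 and 18.0) to 63.5 ± 31.2 (2.56, 76.2 and 97.7). Its log2 fold change was 2.58 (adjusted p = 4.31e-08), with a few low 8C embryos inside the range of 2C. Ranked by mean FPKM among the 24006 genes, *Elovl6* moved from place 5653 to 1115 and *Lpcat3* from 4996 to 1099.

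*Mylip*, the ligase that acts on the LDL receptor, went the other way, from 8.62 ± 6.72 FPKM (0, 6.27 and 25.3) to 0.557 ± 0.729 (0, 0.346 and 3.13). Its log2 fold change was -2.34 (limma adjusted p = 2.77e-10), and its rank went from 4955 to 10025. *Abcg1* fell from 1.42 ± 1.51 FPKM (0, 0.714 and 5.56) to 0.121 ± 0.184 (0, 0.0415 and 0.664), a log2 difference of -0.92 (adjusted p = 4.08e-06). At 8C it was listed at 0 in 8 of 16 control embryos, so its log2 difference on the FPKM + 1 scale is small although its level was close to nothing.

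The genes of fatty acid synthesis, *Acaca* and *Fasn*, rose and passed, with smaller log2 differences than *Elovl6* and *Lpcat3*. *Acaca* went from 0.365 ± 0.308 FPKM (0, 0.258 and 1.03) to 0.792 ± 0.320 (0.383, 0.828 and 1.57), a log2 difference of 0.40 (limma adjusted p = 0.00507). At levels this low the FPKM + 1 scale understates its change. *Fasn* went from 2.42 ± 1.54 (0.234, 2.00 and 5.43) to 4.26 ± 2.60 (0.728, 3.51 and 10.7), a log2 difference of 0.60 (adjusted p = 0.0284) that did not pass under median-ratio scaling (0.37, adjusted p = 0.179). Both genes overlapped widely between stages.

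The desaturases and *Srebf1* did not pass. *Scd1* had 8.00 ± 5.76 FPKM at 2C (1.24, 6.08 and 20.5) and 11.7 ± 7.05 at 8C (2.95, 10.3 and 28.9), a log2 difference of 0.57 (limma adjusted p = 0.104). *Scd2* had 5.19 ± 2.76 and 3.88 ± 3.24 FPKM, a log2 difference of -0.49 (adjusted p = 0.132), and *Srebf1* 1.53 ± 1.24 and 1.53 ± 0.869 (0.08, adjusted p = 0.728). *Scd1* passed under quantile normalization (0.80, adjusted p = 0.00941), and *Scd2* passed under median-ratio scaling (-0.75, adjusted p = 0.0277) and without the 3 libraries whose headers name another stage (-0.65, adjusted p = 0.0375).

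The median of all genes was -0.31 on the log2 scale in this comparison (-0.48 under median-ratio scaling and -0.02 under quantile normalization). Relative to it, *Elovl6* was at 3.71, *Lpcat3* at 2.89, *Fasn* at 0.90, *Acaca* at 0.71, *Abcg1* at -0.61 and *Mylip* at -2.03. The receptors rose as well, *Nr1h3* by 2.26 (3.44 ± 5.24 to 14.2 ± 6.87 FPKM), *Nr1h2* by 1.49 (15.1 ± 6.22 to 41.8 ± 10.7) and *Nr5a2* by 1.36 (23.4 ± 22.3 to 46.2 ± 18.3) on the log2 scale.

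**Figure D1:**
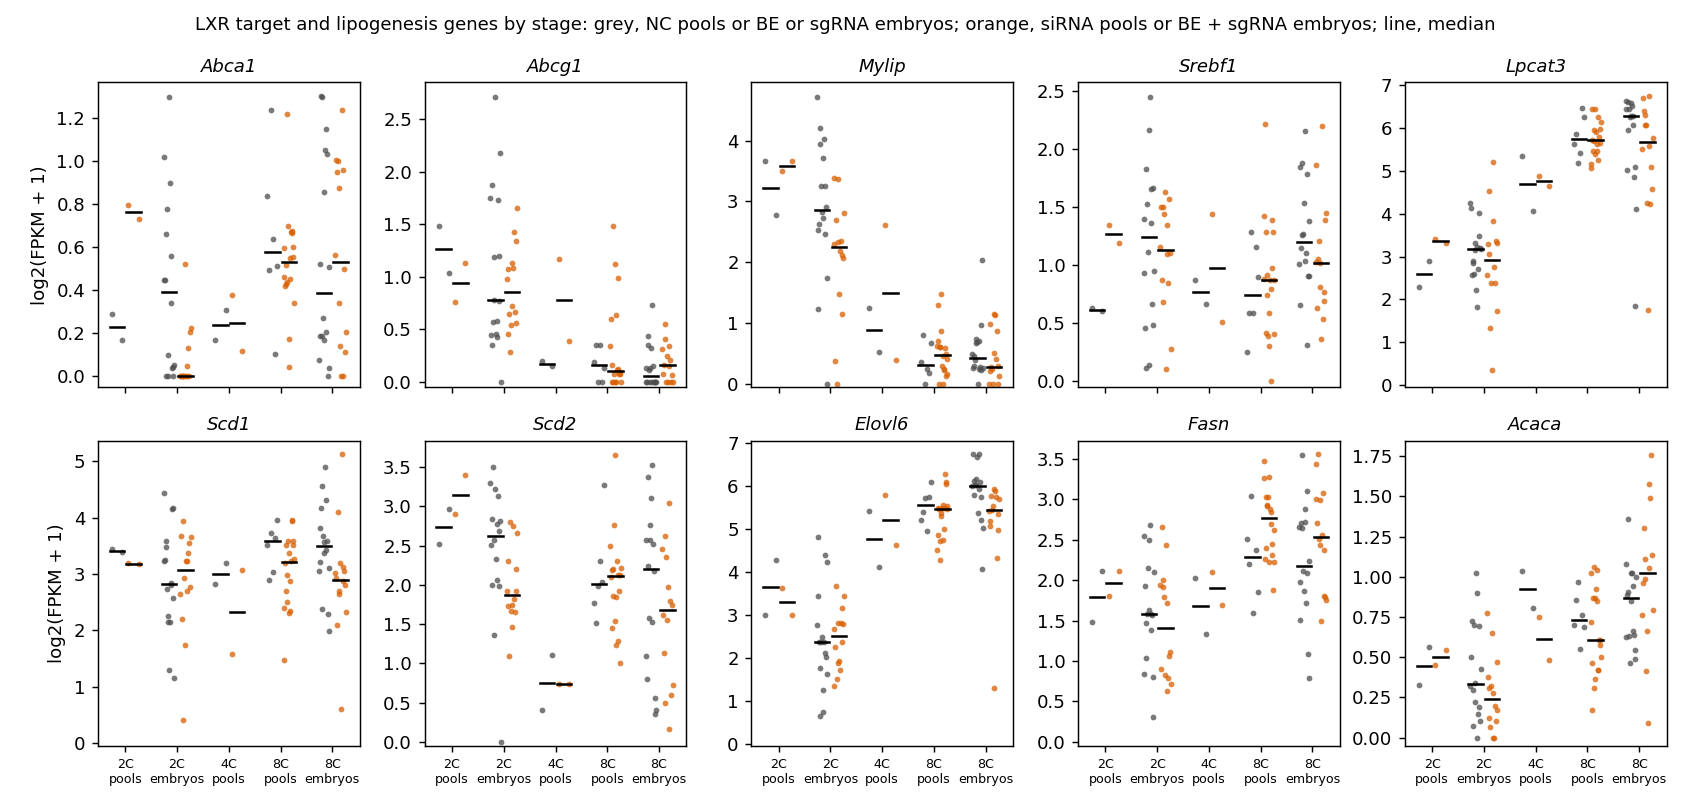
log2(FPKM + 1) of the 10 genes by stage, each point 1 library and each line a median, with grey for NC pools and BE or sgRNA embryos and orange for KD pools and BE + sgRNA embryos. *Elovl6* and *Lpcat3* rise from means of 6.93 and 8.48 FPKM in 2C control embryos to 62.6 and 63.5 at 8C, while *Mylip* falls from 8.62 to 0.557.

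NC pools placed part of this change before the 4C stage, although 2C and 4C pools come from different experiments, so stage and experiment cannot be told apart, and the header of the first 2C NC pool names it a control of the nuclear receptor family KD. From 2C to 4C, 4 of 8 members passed, where 28.2% of all genes did. *Lpcat3* rose from 3.87 and 6.40 FPKM in the 2 NC pools of 2C to 39.8 and 15.6 at 4C (log2 2.12, limma adjusted p = 0.00999). *Mylip* fell from 11.6 and 5.85 to 1.38 and 0.438 (-2.33, adjusted p = 0.00506), and *Scd2* from 4.71 and 6.85 to 0.323 and 1.15 (-1.99, adjusted p = 0.0222). *Abcg1* fell from 1.80 and 1.05 to 0.151 and 0.108 (-1.09, adjusted p = 0.0216). In the fit of NC pools, used for 4C and 8C alike, *Abcg1* and *Mylip* passed the filter on low values only through the 2C pools. The direction of both follows in part from that filter. *Elovl6*, at 7.04 and 18.5 FPKM against 41.5 and 16.2, overlapped and did not pass (1.11, adjusted p = 0.169).

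From 2C to the 6 NC pools of 8C, 4 of 8 members passed, where 46.6% of all genes did. *Lpcat3* (log2 3.22, limma adjusted p = 0.00018) and *Elovl6* (1.87, adjusted p = 0.00791) were higher, and *Mylip* (-2.84, adjusted p = 0.000259) and *Abcg1* (-1.09, adjusted p = 0.00456) were lower, the direction of the single embryos for all of them. *Abcg1* did not pass under quantile normalization (-0.51, adjusted p = 0.13), and without the first 2C NC pool *Elovl6* did not either (1.23, adjusted p = 0.134). *Scd2*, low at 4C, was back at 1.86 to 8.66 FPKM in the NC pools of 8C. Within the 4KD experiment, where both stages were injected alike, no member passed between 4C and 8C in NC or in 4KD pools, and neither did any other gene (0% of 10476). At an unadjusted p under 0.05 there were 0 of 7 members in NC pools (7.41% of genes) and 2 in 4KD pools (7.67%). There the log2 differences were 1.04 for *Lpcat3* and 0.89 for *Scd2* in NC pools, and 1.56 for *Scd2* and 1.47 for *Fasn* in 4KD pools (both limma adjusted p = 0.553).

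Depletion of the siRNA targets was checked first. In the 10 pools of 8C that received *Nr1h3* siRNA, alone or with others, *Nr1h3* was at 0.892 ± 0.786 FPKM (0.207 to 2.51), against 12.4 ± 5.78 (4.18 to 23.0) in the 14 pools without it. *Nr5a2* was at 7.03 ± 3.01 FPKM (3.90 to 12.8) in the 10 pools with its siRNA and at 38.5 ± 7.81 (27.1 to 50.2) in the 14 without. The groups did not overlap for either target. The paralog *Nr1h2* stayed in the *Nr1h3* KD pools at 44.8 and 41.0 FPKM, beside 49.7 and 51.3 in NC (log2 -0.23), so LXRβ mRNA was present throughout.

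*Nr1h3* KD alone moved none of the genes past the test. At 8C, *Nr1h3* was at 0.547 and 0.240 FPKM in the 2 KD pools and 9.32 and 11.99 in the 2 NC pools (log2 -3.06, limma adjusted p = 0.157). Of the 6 members tested 0 passed (0 also at an unadjusted p under 0.05), where 0.00984% of 10163 genes passed and 2.92% had an unadjusted p under 0.05. The median log2 difference was 0.003 over the 6 members and 0.003 over all genes.

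*Elovl6* had 67.7 and 65.6 FPKM after *Nr1h3* KD and 52.9 and 67.1 in NC, a log2 difference of 0.16 (95% interval -0.64 to 0.96). *Scd1* had 14.3 and 11.002 against 11.5 and 14.6 (-0.04, interval -0.93 to 0.85), and *Fasn* 4.45 and 2.68 against 4.19 and 2.62 (0.05, interval -0.84 to 0.93). For these 3 genes the KD and NC pools interleaved. *Srebf1*, at 0.971 and 1.44 against 1.24 and 0.864, also overlapped (0.10, interval -0.86 to 1.06).

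Of the 6 members tested, 1 lay with both KD pools below both NC pools, *Lpcat3*, at 54.3 and 61.6 FPKM against 87.9 and 76.0, as 18.9% of the genes tested did (log2 -0.49, interval -1.35 to 0.37, limma adjusted p = 1). *Scd2* had 2.80 and 3.35 against 3.10 and 8.66 (-0.63, interval -1.91 to 0.65). The intervals are wide, and with pairs of pools a change of the size of 1 on the log2 scale lies inside those of *Lpcat3* and *Scd2*. *Abca1*, *Abcg1*, *Mylip* and *Acaca* were below the filter in this experiment and were not tested. At these low levels *Acaca* was at 0.526 and 0.493 FPKM after *Nr1h3* KD against 0.698 and 0.610 in NC, below both NC pools, and *Abca1* at 0.587 and 0.468 against 0.0765 and 0.428, above both. *Abcg1* and *Mylip* overlapped with NC.

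After *Nr5a2* KD the 6 log2 differences ran from -1.19 to 0.74, beside -0.63 to 0.16 after *Nr1h3* KD, and both comparisons share their NC pools. Of the 6 members 0 passed, where 2.75% of genes did, and 2 had an unadjusted p under 0.05, as 18.1% of all genes had. *Scd1* was at 6.37 and 4.08 FPKM against 11.5 and 14.6 in NC (log2 -1.19, interval -2.08 to -0.29, limma p = 0.0138, adjusted p = 0.151). *Elovl6* was at 25.9 and 30.8 against 52.9 and 67.1 (-1.05, interval -1.85 to -0.25, p = 0.0144, adjusted p = 0.155). Both genes were below NC in 2 of 2 KD pools.

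*Lpcat3* was at 48.1 and 43.4 FPKM after *Nr5a2* KD, also below both NC pools (log2 -0.83, interval -1.69 to 0.04, limma adjusted p = 0.301). *Fasn* was at 6.36 and 6.15 against 4.19 and 2.62, above both (0.74, interval -0.14 to 1.63, adjusted p = 0.369). *Srebf1*, at 0.831 and 0 FPKM, was low and below both NC pools (-0.59, adjusted p = 0.519), while *Scd2* overlapped. Of the 6 members tested, 4 lay below and 1 above both NC pools, beside 33.1% and 12.9% of all genes tested. *Acaca*, below the filter, was at 0.801 and 1.06 FPKM, also above both NC pools. The median was -0.85 over the 6 members and -0.22 over all genes (0.00 under median-ratio scaling).

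Set directly against each other, the single KDs of *Nr1h3* and *Nr5a2* gave 0 of 6 members past the test, where 2.09% of genes passed, and 2 at an unadjusted p under 0.05, as 16% of genes had. *Elovl6* was higher after *Nr1h3* KD by 1.21 on the log2 scale (interval 0.41 to 2.00, limma adjusted p = 0.123) and *Scd1* by 1.15 (interval 0.25 to 2.04, adjusted p = 0.188). Each was higher in 2 of 2 pools, a separation that 33.6% of genes showed. *Fasn* differed by -0.70 (adjusted p = 0.424), *Srebf1* by 0.70 (adjusted p = 0.461), *Lpcat3* by 0.33 and *Scd2* by 0.25.

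The single KDs of *Rarg* and *Nr2c2* moved no member past the test either (backgrounds 0.00984% and 0.0787%). The median of all genes was -0.24 after *Nr2c2* KD. For *Rarg* KD the 6 log2 differences ran from -0.95 (*Scd2*) to 0.39 (*Fasn*), and for *Nr2c2* KD from -1.04 (*Scd2*) to 0.31 (*Fasn*). *Scd2* took the lowest value in both. It did so beside NC pools that were themselves far apart, at 3.10 and 8.66 FPKM.

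**Figure D2:**
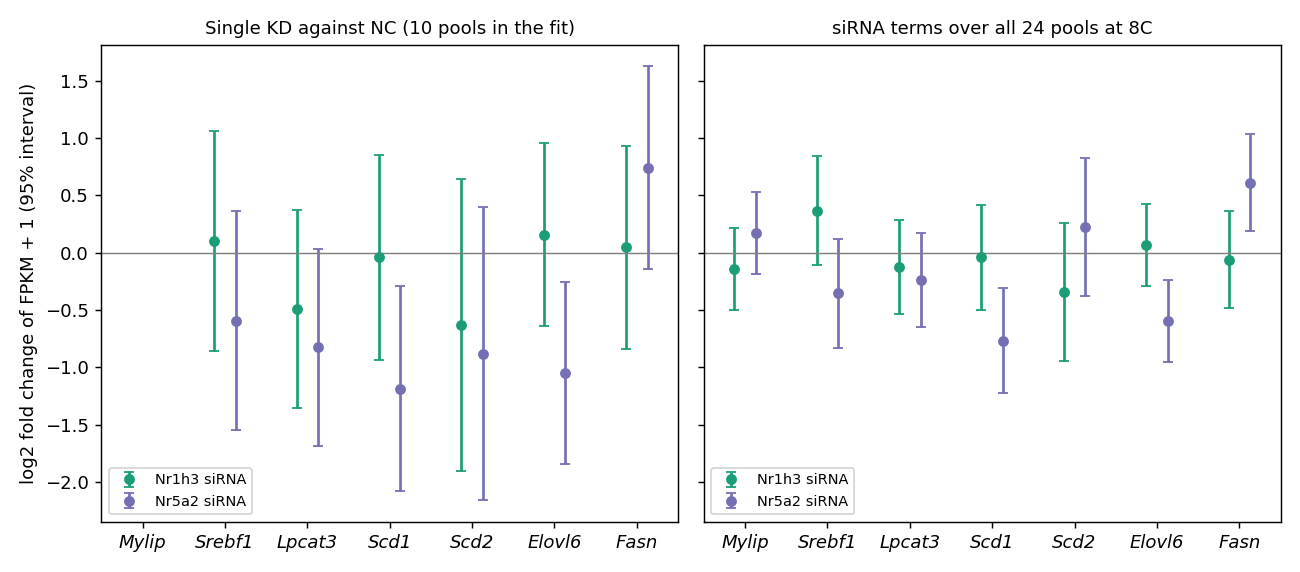
Log2 differences on the FPKM + 1 scale with 95% intervals from limma for the *Nr1h3* (green) and *Nr5a2* (purple) siRNAs, in the single KDs against NC on the left, where *Mylip* was not tested, and as terms over the 24 pools of 8C on the right. After *Nr1h3* siRNA every interval covers 0, while those of *Scd1* (-1.19 on the left, -0.77 on the right) and *Elovl6* (-1.05 and -0.60) lie below 0 after *Nr5a2* siRNA.

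The combinations repeat the siRNAs in other pools. In 4KD pools at 8C, 0 of 7 members passed, as did 0% of 10476 genes, and 0 had an unadjusted p under 0.05, as 7.48% of genes had. *Scd1* was at 4.27 and 1.78 FPKM against 10.5 and 6.39 in NC (log2 -1.27, limma adjusted p = 0.719), and *Elovl6* at 21.8 and 27.9 against 35.9 and 40.7 (-0.61, adjusted p = 0.906). *Fasn* was at 8.57 and 10.1 against 4.71 and 3.58 (1.01, adjusted p = 0.71). *Lpcat3* was at 34.9 and 32.5 against 48.7 and 57.0 (-0.63). *Scd2* (0.65) and *Srebf1* (0.73) lay above both NC pools as well. Of the 7 members tested, 3 were below and 3 above every NC pool, beside 19.2% and 18.1% of all genes tested. In the fit of this experiment *Srebf1* and *Mylip* passed the filter on low values only through KD pools. The separation of *Srebf1* follows in part from that filter and carries no weight.

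At 4C the same 4KD gave 0 of 7 members past the test (0% of genes) and 0 at an unadjusted p under 0.05 (5.82% of genes), with log2 differences from -0.68 (*Scd1*) to 0.61 (*Mylip*). *Mylip*, which passed the filter only through KD pools, was at 0.317 and 5.11 FPKM in KD and at 0.438 and 1.38 in NC. Its place at the top of the range follows in part from that filter. *Scd1* was at 1.99 and 7.36 FPKM against 6.04 and 8.16, and *Elovl6* at 54.3 and 23.7 against 41.5 and 16.2, so KD and NC overlapped for both. *Nr5a2* itself was at 3.98 and 17.6 FPKM in these KD pools, against 26.8 and 31.7 in NC. *Nr1h3* was at 1.61 and 8.35 FPKM, against 15.0 and 22.3, so the second pool kept more of both targets. The 4KD effect at 8C against that at 4C passed for 0 of 7 members (0% of genes).

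None of the 4 triple KDs moved any of 7 members past the test, with backgrounds of 0% to 0.0565% of 10626 genes. Against the shared NC pools, *Scd1* differed by -0.03 without *Nr5a2* siRNA and by -0.55, -0.35 and -0.55 in the 3 combinations with it. Its pools were at 8.11 and 10.4 FPKM without *Nr5a2* siRNA, and at 5.45 and 6.86, 4.64 and 10.9, and 3.92 and 9.32 with it, beside 12.3 and 7.22 in NC. *Elovl6* was at 43.6 and 43.0 without *Nr5a2* siRNA, and at 18.4 and 25.5, 38.3 and 40.7, and 44.0 and 46.3 with it, beside 51.9 and 29.8. *Elovl6* lay below both NC pools only in *Nr5a2 + Nr1h3 + Nr2c2* KD (log2 -0.83), where *Rarg* siRNA was absent. *Fasn* differed by 0.01 without *Nr5a2* siRNA and by 0.66, 0.66 and 0.43 with it, and *Lpcat3* by 0.78 without and by 0.28, 0.89 and 0.35 with it. The medians of all genes were 0.11 to 0.13.

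Within the triple KDs, *Nr1h3* siRNA could be set against its absence, 6 pools against 2. Of 7 members 0 passed, as did 0% of genes, and 1 had an unadjusted p under 0.05, as 2.45% of genes had. *Scd2* was lower in all pools with *Nr1h3* siRNA, at a mean of 2.67 FPKM against 8.67 (log2 -1.36, interval -2.36 to -0.36, limma p = 0.0122, adjusted p = 1), a separation seen in 2.16% of genes. The comparison rests on the *Nr5a2 + Rarg + Nr2c2* KD pools, at 5.78 and 11.6 FPKM of *Scd2*. *Mylip* (-0.73) lay below as well, and the other 5 members tested overlapped. In this fit *Mylip* passed the filter on low values only through the *Nr5a2 + Rarg + Nr2c2* KD pools (1.05 above NC on the log2 scale). Its separation follows in part from that filter and carries no weight. *Abca1*, below the filter and not tested, was at 0.0317 to 0.431 FPKM in the 6 pools with *Nr1h3* siRNA and at 1.33 and 0.625 in the 2 without, so it separated too, while it was above NC after *Nr1h3* KD alone. *Abcg1* and *Acaca* overlapped.

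*Nr5a2* siRNA against its absence within the triple KDs gave 0 of 7 members (0.282% of genes). *Srebf1* differed by -0.61, *Fasn* by 0.57, *Scd1* by -0.45 and *Elovl6* by -0.35, with a smallest limma adjusted p of 0.753. With the replicate number as a block, 262 genes passed in place of 30, but none of the members.

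To use all 24 siRNA pools of 8C, a fit with a term for each experiment and for each siRNA was added after the data had been seen, so it is no independent support for the values above. It assumes that siRNA effects add. The *Nr1h3* term passed for 0 of 7 members, where 0.0177% of 11290 genes passed. *Scd1* had -0.04 on the log2 scale (interval -0.50 to 0.42), *Fasn* -0.06 (-0.48 to 0.36), *Elovl6* 0.07 (-0.29 to 0.43) and *Lpcat3* -0.12 (-0.54 to 0.29). *Srebf1* had 0.37 (-0.11 to 0.84), *Scd2* -0.34 (-0.95 to 0.26) and *Mylip* -0.14 (-0.50 to 0.22). In the same fit *Nr1h3* itself had -3.06 (interval -3.56 to -2.56, limma adjusted p = 3.08e-08), while a change as large as 1 on the log2 scale lies outside the intervals of all 7 members. For *Srebf1* and *Mylip* this says nothing about a fall. Their means in the 14 pools without *Nr1h3* siRNA were 0.720 and 0.421 FPKM, too low to fall by 1 on the FPKM + 1 scale.

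The *Nr5a2* term passed for 3 of 7 members, beside 15.6% of all genes (9.66% lower and 5.93% higher). *Scd1* was at 5.76 ± 2.72 FPKM (lowest 1.78, median 5.04, highest 10.9) in the 10 pools with *Nr5a2* siRNA and at 10.6 ± 2.67 (6.39, 10.5 and 14.6) in the 14 without. Its term was -0.77 (interval -1.23 to -0.31, limma adjusted p = 0.0192). *Elovl6* was at 32.0 ± 9.71 (18.4, 29.4 and 46.3) against 50.5 ± 13.7 (29.8, 44.7 and 76.4), with a term of -0.60 (interval -0.96 to -0.24, adjusted p = 0.0196). Both fell, and the ranges of the pools overlapped for both.

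*Fasn* rose, from 4.13 ± 1.32 FPKM (2.02, 4.08 and 7.24) without to 7.10 ± 1.75 (3.67, 6.88 and 10.1) with *Nr5a2* siRNA, with a term of 0.61 (interval 0.19 to 1.03, limma adjusted p = 0.0437). The term was -0.24 for *Lpcat3* (interval -0.65 to 0.17), -0.35 for *Srebf1*, 0.23 for *Scd2* and 0.17 for *Mylip*. *Nr5a2* itself had -2.17 (adjusted p = 1.4e-08).

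These 3 calls depended on which pools entered. Without the single KD experiment the terms were -0.56 for *Scd1* (limma adjusted p = 0.486) and -0.36 for *Elovl6* (adjusted p = 0.513), and without the 4KD experiment -0.69 (adjusted p = 0.0557) and -0.56 (adjusted p = 0.0645). Leaving out the second *Nr5a2* KD pool gave -0.63 for *Scd1* (adjusted p = 0.0899) and -0.56 for *Elovl6* (adjusted p = 0.058), and leaving out the first gave -0.49 for *Elovl6* (adjusted p = 0.0944). Over 34 alternatives *Scd1* passed in 31 (-1.06 to -0.56), *Elovl6* in 30 (-0.88 to -0.36) and *Fasn* in 13 (0.55 to 0.72, adjusted p from 0.0106 to 0.396).

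Other markers differed between the same pools. The 4 blood markers summed to 27.9 to 186 FPKM in the pools with *Nr5a2* siRNA and to 7.26 to 24.5 in those without, carried by *Hba-a1*, while *Ptprc* and *Hbb-b1* had medians of 0 at 8C. The 5 markers of the 2C stage summed to 5.80 to 25.4 FPKM (median 15.6) with and 2.22 to 76.2 (median 5.30) without, and the 7 markers of the 8C stage to 74.7 to 179 (median 104) and 81.1 to 193 (median 125). Their part in the *Scd1*, *Elovl6* and *Fasn* values was not tested.

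The difference between the *Nr1h3* and *Nr5a2* terms passed for 0 of 7 members, where 4.78% of genes passed, and for 4 at an unadjusted p under 0.05, where 17.5% of genes did. It was 0.73 for *Scd1* (interval 0.04 to 1.42, limma adjusted p = 0.252), 0.67 for *Elovl6* (0.13 to 1.21, adjusted p = 0.157), -0.67 for *Fasn* (-1.31 to -0.03, adjusted p = 0.256) and 0.72 for *Srebf1* (0.01 to 1.44, adjusted p = 0.28). So *Scd1*, *Elovl6* and *Fasn* passed for 1 siRNA and not for the other, but a difference between the siRNAs was not shown at this threshold. The *Rarg* and *Nr2c2* terms passed for 0 of 7 members each (0% and 0.354% of genes), and *Elovl6* had 0.39 for *Rarg* (adjusted p = 1) and -0.31 for *Nr2c2*.

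**Figure D3:**
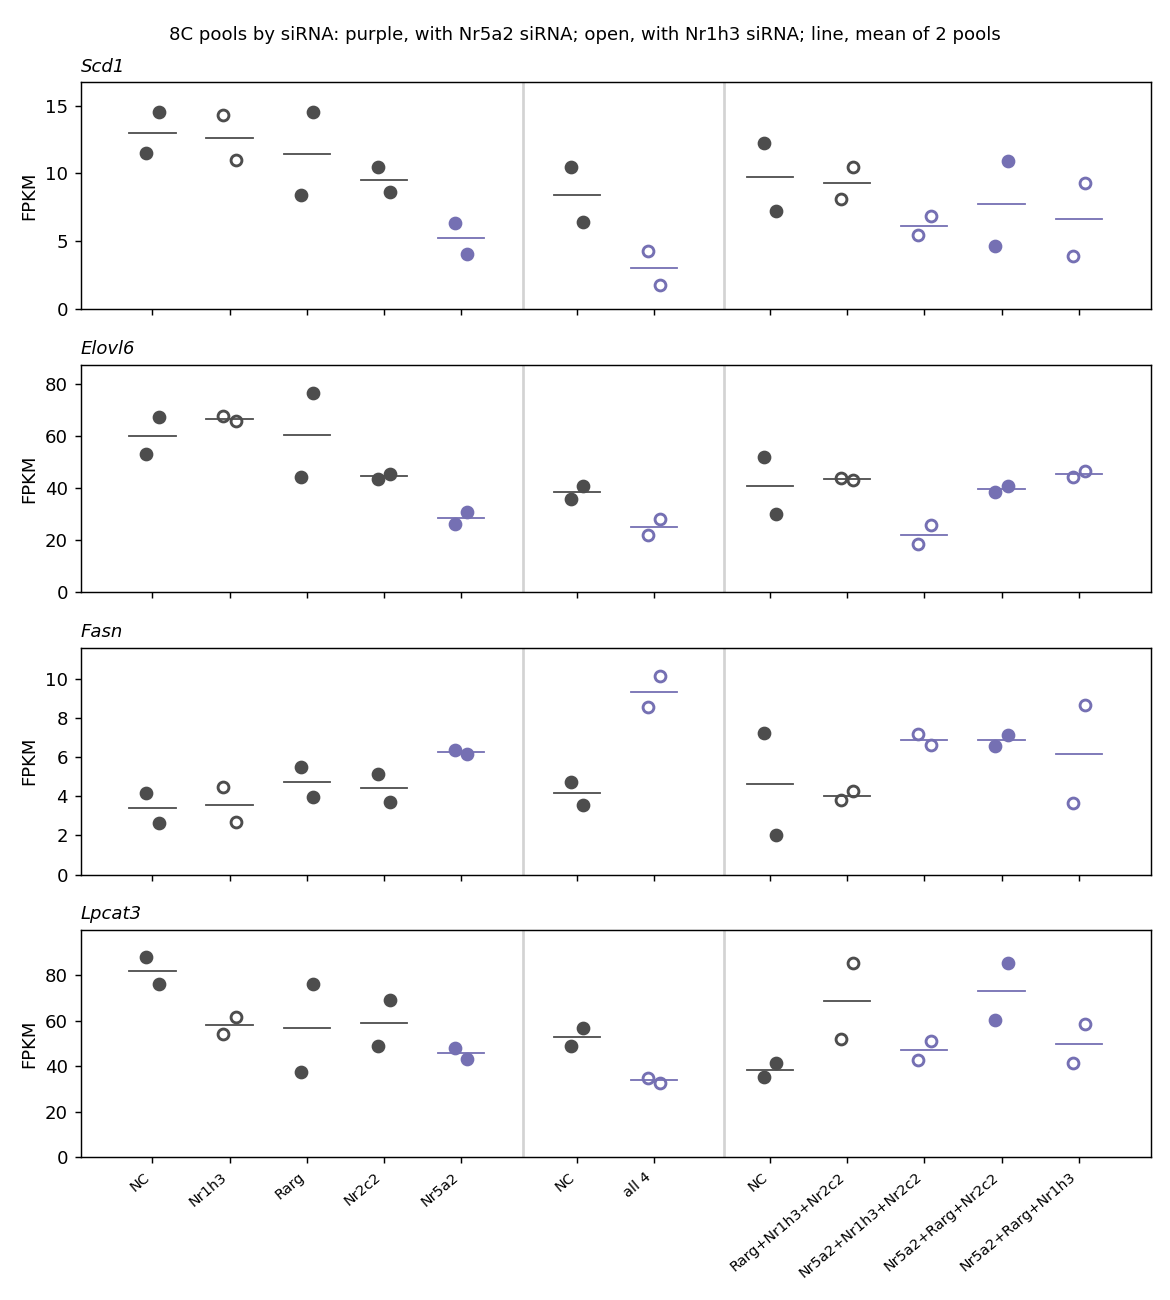
FPKM of *Scd1*, *Elovl6*, *Fasn* and *Lpcat3* in the 24 siRNA pools of 8C, each point 1 pool and each line the mean of 2, purple for pools with *Nr5a2* siRNA and open for pools with *Nr1h3* siRNA, with grey lines between the single KD, 4KD and triple KD experiments. *Scd1* and *Elovl6* pools with *Nr5a2* siRNA lie at 1.78 to 10.9 and 18.4 to 46.3 FPKM, those without at 6.39 to 14.6 and 29.8 to 76.4.

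At 2C, *Nr5a2* KD left the genes without a call. The header of the first NC pool here names it a control of the nuclear receptor family KD. Its library prefix also differs from that of the second NC pool and both KD pools. KD and NC may therefore differ in more than the siRNA. *Nr5a2* was at 2.72 and 6.13 FPKM against 19.4 and 24.3 in NC (log2 -2.14, limma adjusted p = 0.89), and of 8 members 0 passed (0.0167% of genes). *Lpcat3* was at 9.65 and 8.96 FPKM against 3.87 and 6.40 in NC (0.78, adjusted p = 0.89), and *Srebf1* at 1.54 and 1.28 against 0.551 and 0.518 (0.65). Both were above NC in 2 of 2 pools, as were 27.3% of genes tested. *Srebf1* passed the filter on low values only through the KD pools (mean 1.41 FPKM, against 0.534 in NC). Its separation follows in part from that filter and carries no weight. *Scd1* was at 8.11 and 8.07 against 9.84 and 9.42 (-0.22), *Elovl6* differed by -0.34, *Fasn* by 0.17, *Scd2* by 0.41, *Mylip* by 0.36 and *Abcg1* by -0.32, and the median of all genes was 0.23.

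In single embryos, editing of *Nr5a2* aims at a stop codon in its coding sequence, so its mRNA need not fall, and *Nr5a2* differed by 0.21 between BE + sgRNA embryos and the mean of the BE and sgRNA groups at 8C (limma adjusted p = 0.831). Of 7 members 0 passed, where 0.164% of genes did, and 1 had an unadjusted p under 0.05, where 10.8% of genes had. *Elovl6* was at 40.3 ± 15.9 FPKM in the 14 BE + sgRNA embryos (lowest 1.44, median 42.2, highest 59.7), at 73.9 ± 19.0 in the 8 BE embryos (54.4, 66.2 and 106) and at 51.2 ± 27.6 in the 8 sgRNA embryos (15.8, 46.8 and 106). Its log2 difference was -0.74 (interval -1.41 to -0.07, p = 0.0318, adjusted p = 0.404). The edited embryos overlapped with both control groups.

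The control groups themselves were apart. Against BE alone the *Elovl6* difference was -1.07 and against sgRNA alone -0.41. The libraries were split into sets, called runs here, by the editor name in the file header (BE4 or eBE) or, where none was named, by the library number. A difference of editor and any other difference between these sets cannot be told apart. The 4 sgRNA embryos of 1 run (BE4) had FPKM sums of 207918 to 268257, beside 428014 to 466564 in the other (eBE), with *Elovl6* at 34.0 ± 15.3 against 68.4 ± 27.6 and *Lpcat3* at 19.9 ± 13.5 against 81.8 ± 12.9. Within the runs the *Elovl6* difference was -0.84 and -0.72, with the run as a term -0.78 (a fit that leaves out the 2 BE + sgRNA libraries whose headers name another stage), and without the library of lowest FPKM sum -0.45.

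*Scd1* differed by -0.56 in edited embryos of 8C (limma adjusted p = 0.571), by -0.15 and -0.86 within the BE4 and eBE runs, and by -0.38 without the library of lowest sum. *Lpcat3* differed by -0.33 (adjusted p = 0.851), but by 0.19 against sgRNA embryos alone. The differences were 0.31 for *Fasn*, 0.19 for *Acaca*, -0.19 for *Srebf1* and -0.36 for *Scd2*.

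At 2C, 0 of 8 members passed between edited and control embryos (0.00805% of genes), 1 had an unadjusted p under 0.05 (11.6% of genes), and the log2 difference was below 0 for all 8. *Mylip* had the lowest unadjusted p (limma p = 0.0356, adjusted p = 0.402), at 3.99 ± 2.89 FPKM in BE + sgRNA embryos (0, 3.76 and 9.48), 10.4 ± 8.04 in BE embryos (1.35, 7.30 and 25.3) and 6.85 ± 5.00 in sgRNA embryos (0, 6.04 and 15.2). The groups overlapped. The editing effect at 8C against that at 2C passed for 0 of 9 members (0.0385% of genes), with a smallest adjusted p of 0.592.

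**Figure D4:**
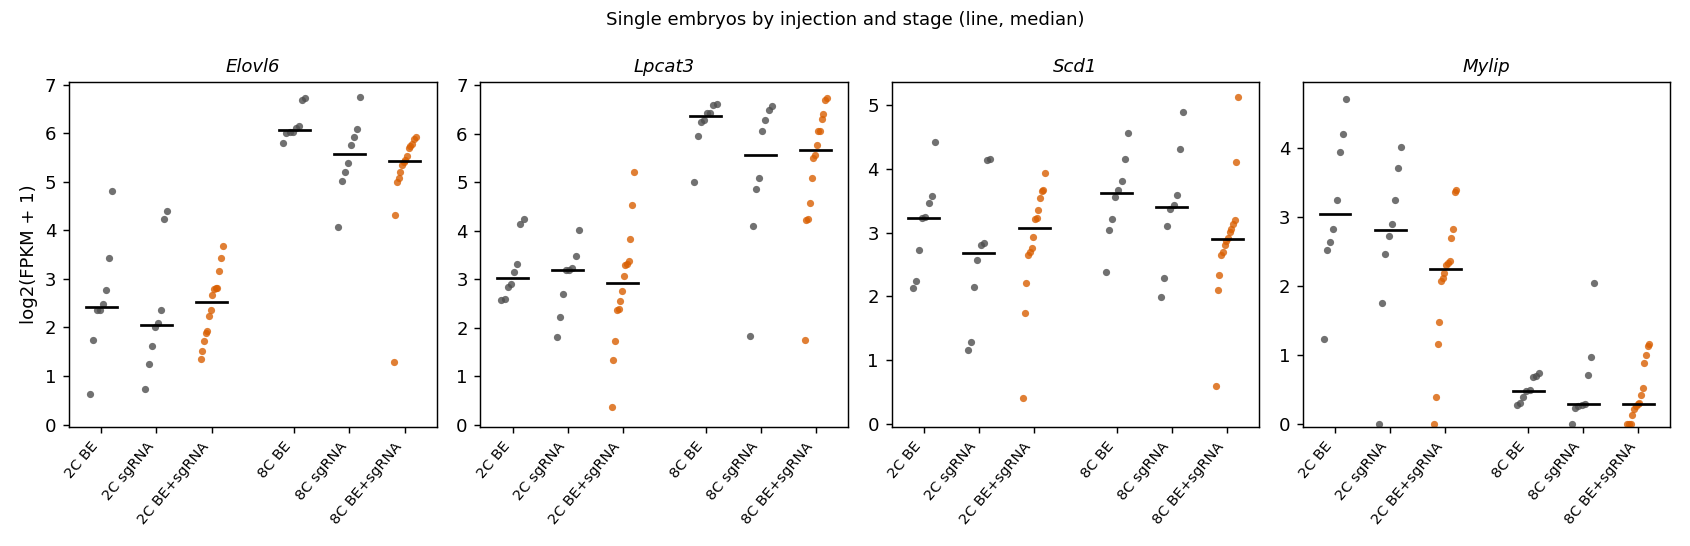
log2(FPKM + 1) of *Elovl6*, *Lpcat3*, *Scd1* and *Mylip* in single BE and sgRNA embryos (grey) and BE + sgRNA embryos (orange) at 2C and 8C, each point 1 embryo and each line a median. At 8C *Elovl6* lies at 1.44 to 59.7 FPKM in BE + sgRNA embryos, 54.4 to 106 in BE embryos and 15.8 to 106 in sgRNA embryos.

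Other genes of the pathway were taken from lists chosen with earlier results of these data known. After *Nr1h3* KD at 8C, 0 of 8 other LXR targets, 0 of 31 other lipogenesis genes, 0 of 7 genes of SREBP control, 0 of 8 cofactors, 0 of 8 genes of fatty acid oxidation and 0 of 5 genes of phospholipid remodelling passed. Only 0.00984% of all 10163 genes passed there, so these counts say little about the lists themselves. After *Nr5a2* KD, which passed for 2.75% of all genes, 1 of 8 other LXR targets fell, *Apoc1*, an apolipoprotein (15.9 against 78.0 FPKM, log2 -2.25, limma adjusted p = 0.0121), and 2 of 31 lipogenesis genes. The latter were *Agpat9* (*Gpat3*), which starts glycerolipid synthesis (11.2 against 93.7, -2.99, adjusted p = 0.00285), and *Ptplad1* (*Hacd3*), a dehydratase of fatty acid elongation (6.91 against 33.5, -2.25, adjusted p = 0.0332).

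*Mboat2*, a relative of *Lpcat3* among the lysophospholipid acyltransferases, fell from 67.7 to 6.83 FPKM after *Nr5a2* KD (log2 -3.16, limma adjusted p = 0.00243), 1 of 5 genes of phospholipid remodelling tested. *Cpt1a*, which admits fatty acids to mitochondria, fell from 11.4 to 1.58 (-2.21, adjusted p = 0.0152), 1 of 8 genes of fatty acid oxidation. No gene of SREBP control (0 of 7) or cofactor (0 of 8) passed. Set against *Nr1h3* KD, *Mboat2* (2.49, adjusted p = 0.00927), *Agpat9* (2.38, adjusted p = 0.00981), *Apoc1* (1.98, adjusted p = 0.0259) and *Ptplad1* (2.12, adjusted p = 0.0494) were higher there than after *Nr5a2* KD, a difference between the siRNAs that passed the test itself.

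In the same fit over all 24 pools of 8C the *Nr1h3* term passed for no gene of these lists besides *Nr1h3* itself, where 0.0177% of all genes passed. The *Nr5a2* term, which passed for 15.6% of all genes, was lower for 7 and higher for 2 of 35 lipogenesis genes, with *Dgat2*, which makes triacylglycerol, at 1.41 (limma adjusted p = 8.17e-05). Of 11 other LXR targets 4 were lower and 1 higher, and the apolipoproteins moved apart, *Apoc2* at -1.23 (adjusted p = 0.0113) and *Apoe* at 1.16 (adjusted p = 0.0101). Of 6 genes of phospholipid remodelling, *Mboat2* (-2.02) and *Mboat1* (-0.98) were lower and *Lpcat1* higher (1.87, adjusted p = 0.000467). *Lpcat3* of the same family did not pass, with a term of -0.24.

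With stage, the counts of the surrounding pathway are to be read beside the 43.6% of all genes that fell and the 28.9% that rose. From 2C to 8C in single control embryos, 19 of 36 other lipogenesis genes fell and 7 rose, among the latter *Agpat9* (63.8 against 6.43 FPKM, log2 3.25) and *Agpat2* (114 against 12.5, 3.15). Of 12 other LXR targets 6 fell and 2 rose, led by *Smpdl3a*, a phosphodiesterase (62.3 against 0.605, 5.08). *Insig1*, which retains SREBP in the endoplasmic reticulum, fell from 84.8 to 19.4 FPKM (-2.15), as did 4 of 9 SREBP control genes in all, while 1 rose. Of 6 genes of phospholipid remodelling 3 rose, with *Mboat2* at 1.97 and *Mboat1* at 2.25, and 2 fell.

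By Spearman's rho over the mean log2(FPKM + 1) of the 22 groups, among 6269 genes with a mean of at least 5 FPKM, the patterns among the most like that of *Lpcat3* were those of *Ctsd* (0.949) and *Bcat1* (0.940). For *Elovl6* they were *Clpb* (0.921), *Sord* (0.918) and *Tbc1d22a* (0.916). Many groups share a stage or an experiment, so these values describe the data and carry no test.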

How the data were processed

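FPKM were the only unit used. The authors mapped paired-end Smart-seq2 reads to mm9 with TopHat and made the deposited FPKM per gene with Cufflinks on the refFlat annotation, and no scaling between libraries was added. Of 113 samples listed, 92 with FPKM were used and 21 were not analysed here. The edgeR test on counts that the methods describe could not be run on FPKM. Instead limma 3.58.1 (R 4.3.3, trended eBayes) was fitted on log2(FPKM + 1) within each experiment, so fold changes of low genes are understated, with genes of a mean of at least 1 FPKM in 1 group and Benjamini-Hochberg adjustment over all of them. The limma fits were tested on simulated data. In the triple KD experiment, same-numbered pools of all 10 group pairs deviated together (r from 0.278 to 0.513), so their numbers pair the pools. In the 4KD experiment r ran from -0.297 to 0.346 over 6 group pairs (median -0.274), so its pools did not deviate independently of number either. The tests as reported use no pairing, and replicate blocks were alternatives. In the single KD experiment (r from -0.04 to 0.141) and at 2C (0.004) the pools share a number only. The members are named one by one where a result turns on them and otherwise given by counts and ranges, and from each list at most 3 genes with the largest change that passed. For the 2 members of highest mean, the 3 genes most alike in pattern were taken, of which 1 is not reported here. The members and lists were chosen with earlier results of these data known. Alternatives were a pseudocount of 0.1, no filter or a mean of 5 FPKM, median-ratio and quantile scaling, no trend, other samples in the fit, replicate blocks, the limits of the methods (adjusted p under 0.01 and a log2 change of 2), and leaving out pools. The additive fit over 24 pools, the within-run fits and the crossed block were added after seeing the data. Summaries were made with Python 3.11.15 (pandas 2.3.3, scipy 1.17.1).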

Additional observations from a re-analysis of the deposited data

Results flagged for a closer look

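In groups of 8 embryos, 4 of 40 tested combinations of gene and group held 1 embryo far from the others, where chance gives about 1 in 20. *Scd2* was at 0 FPKM in sgRNA embryo 8 of 2C (the others 2.97 to 7.75), a library whose file header names a 4-cell embryo. *Lpcat3* was at 31.2 FPKM in BE embryo 3 of 8C (the others 60.7 to 97.7). *Abcg1* was at 0.664 FPKM in sgRNA embryo 2 of 8C (the others 0 to 0.255), and *Mylip* at 3.13 in sgRNA embryo 7 of 8C (the others 0 to 0.954).

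After *Nr5a2* KD, *Srebf1* and *Lpcat3* were above every NC pool at 2C and below every NC pool at 8C. The log2 differences were 0.65 and -0.59 for *Srebf1* and 0.78 and -0.83 for *Lpcat3*. At 2C *Srebf1* passed the filter on low values only through the KD pools, so its separation there carries no weight. The difference between the stages was not tested, as the pools come from separate experiments. By its header the first NC pool of 2C is a control of the nuclear receptor family KD, so it may not belong with the 2C KD pools.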

How the results depend on the processing

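No member reversed its direction past a threshold, and no member passed in any KD or editing comparison under any alternative other than the *Nr5a2* term of the added fit. That term passed for 3 members, for 0 without the single KD or the 4KD experiment or at the limits of the methods (adjusted p under 0.01, log2 change of 2), and for 0 to 3 with 1 pool left out. From 2C to 8C in single control embryos 6 members passed, with 3 at those limits and 8 under quantile normalization as the lowest and highest. From 2C to 4C in NC pools 4 passed, 2 under quantile normalization, 1 with only the groups compared in the fit, 2 at those limits and 1 to 3 with 1 pool left out. From 2C to 8C in NC pools 4 passed, 2 at those limits and 3 to 4 with 1 pool left out.

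With the replicate block, all-gene counts in the triple KDs went from 0, 6, 1 and 0 to 0, 45, 35 and 65, and from 30 to 262 for *Nr5a2* siRNA against its absence, with no member call changed there or elsewhere. With numbers crossed between 4C and 8C, chosen after seeing the data, 7 genes passed in NC pools against 0.

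Over the alternatives, the genes that passed ranged from 6 to 337 for *Nr5a2* KD at 8C (279 as reported), 3 to 274 for *Nr1h3* KD against *Nr5a2* KD (212), 352 to 2411 for the *Nr5a2* term (1761), 5 to 881 for the difference of terms (540), 7 to 58 for the *Nr2c2* term (40), 0 to 87 for editing at 8C (16), 6271 to 11109 for 2C to 8C in single embryos (9421) and 1542 to 3492 for 2C to 4C (3437). The causes were not tested. Depth is unknown, and pairs of pools leave intervals of about 1 on either side on the log2 scale.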
